A study of Mus musculus with 6 samples.

Results

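Cathepsins are the proteases of the lysosome, and cystatins are small proteins that block the cysteine cathepsins by plugging their active site. The data described here cover 10 genes of this system out of 19938 genes measured: the 3 cystatins Cst7, Cst3 and Cstb and the 7 cathepsins Ctsb, Ctsc, Ctsd, Ctsh, Ctsl, Ctss and Ctsz. The set was selected on the rise of Cst7 between the genotypes of this series, with the others added as members of the same families. A row of the array was used for a member when its annotation named that gene alone, and each of the 10 genes had 1 such row.

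Most cathepsins are made as inactive proforms, travel to the lysosome with a mannose 6-phosphate tag and are trimmed there by acid and by other proteases. In blood cells they degrade taken-up protein, cut the invariant chain of MHC class II molecules and, in the case of cathepsin C, remove the short propeptide that keeps granzymes and neutrophil serine proteases inactive. Cystatin F, the product of Cst7, is the cystatin of immune cells. It is sent to the lysosome, and after removal of its first residues it inhibits cathepsin C.

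Expression was measured in LSK CD150- cells of mouse bone marrow, which lack markers of mature lineages, carry Sca-1 and Kit, and are depleted of the stem cells marked by CD150. The samples called deleted came from 3 Cebpafl/fl;Mx1Cre mice, in which the interferon-inducible Mx1 promoter drives Cre in interferon-responsive cells, and the controls came from 3 Cebpafl/fl mice without the transgene. Mice of both genotypes carried the floxed alleles of Cebpa, which encodes the myeloid transcription factor C/EBPα, and received pIpC, a double-stranded RNA that induces interferon, 18 days before the cells were sorted. RNA of each mouse was hybridised alone, to an Affymetrix array of the type Mouse Gene 1.0 ST (n = 3 per genotype), and carrying Cre and losing Cebpa cannot be told apart. No source used here gives the age of the mice.

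All values are log2 intensities after RMA, and log2 fold changes are deleted minus control. Cebpa was lower after deletion, at 6.37, 5.82 and 6.09 on deleted arrays against 7.84, 7.85 and 7.73 on control arrays (log2 fold change -1.71 ± 0.14 SE, limma adjusted p = 0.000883; exact two-sided permutation p = 0.1, the smallest that 3 against 3 allows). Over all genes, which do not replicate one another, Pearson's r was 0.987 to 0.989 among deleted arrays, 0.989 to 0.990 among control arrays and 0.979 to 0.986 between genotypes. The labels call the mice female, but Kdm5d and Eif2s3y, both Y-linked, read 8.04 to 8.49 on all 6 arrays, where the median of all values was 6.20. Of the genes of the gate, Kit averaged 9.40 ± 0.18 in deleted samples and 10.14 ± 0.15 in controls (SD, n = 3 each; log2 fold change -0.75 ± 0.13 SE, limma adjusted p = 0.0270), Slamf1, which encodes CD150, read 3.94 to 4.86 in deleted samples and 3.48 to 3.93 in controls, and Ly6a, which encodes Sca-1, was not analysed here.

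Promoter sequence is shown for Cst7, the member with the large difference, and for Ctsc and Ctsd, whose promoters held a searched motif. RefSeq windows of assembly GRCm38.p6 were found for 7 of the 10 members, and the 250 bases before the start of each were searched on both strands for TTGCNNAA, a core of C/EBP sites, for GAGGAAGT, a site of the myeloid factor PU.1, and for CACGTG, the E-box core bound by TFEB and other MiT factors. The capitals below mark matches, no match overlapped another, and the sequences run 5′ to 3′ on the strand of the gene. The first lies on the plus strand at chr2:150570165-150570414, the second on the plus strand at chr7:88277835-88278023, and the third on the minus strand at chr7:142387828-142388077.
Cst7: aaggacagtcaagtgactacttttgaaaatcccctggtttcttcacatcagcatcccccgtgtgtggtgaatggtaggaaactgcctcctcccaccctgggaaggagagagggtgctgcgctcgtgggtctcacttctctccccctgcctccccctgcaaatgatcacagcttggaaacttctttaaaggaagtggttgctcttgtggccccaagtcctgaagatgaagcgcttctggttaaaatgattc
Ctsc: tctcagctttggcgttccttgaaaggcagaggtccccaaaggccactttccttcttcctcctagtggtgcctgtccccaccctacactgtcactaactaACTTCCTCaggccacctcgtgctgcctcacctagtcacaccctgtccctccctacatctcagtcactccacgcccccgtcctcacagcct
Ctsd: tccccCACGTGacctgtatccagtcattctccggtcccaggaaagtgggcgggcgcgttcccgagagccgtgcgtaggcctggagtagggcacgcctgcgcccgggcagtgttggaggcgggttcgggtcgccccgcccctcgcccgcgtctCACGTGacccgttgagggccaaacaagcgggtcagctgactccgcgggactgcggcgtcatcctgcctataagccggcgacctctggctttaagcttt

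The Cst7 window held no exact match to any of the 3 motifs, and near matches were not searched. It does hold AAGGAAGT, which differs from GAGGAAGT in its first base. How many other windows hold such a near match was not counted, so nothing is read from it. The Ctsc window held the PU.1 letters on the opposite strand, starting 151 bases before the transcript start that the window runs up to, and its last 61 bases are left out above because they lie within the annotated gene. The Ctsd window held the E-box core at 245 and at 98 bases before its start. The Ctsl window held TTGCNNAA and CACGTG but lies wholly within the annotated span of that gene and is not printed. The windows of Cst3, Ctss and Ctsz held none. Among all 32851 windows of this length in the table, 9.56% held TTGCNNAA, 2.44% held GAGGAAGT and 6.02% held CACGTG.

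Cst7 was the one member of the 10 that the fit over all genes called. It read 10.82, 10.54 and 10.16 on deleted arrays, against 8.43, 8.23 and 8.51 on control arrays. Every deleted mouse was above every control mouse, with a gap of 1.64 between the lowest deleted and the highest control value. Cst7 transcript averaged 10.51 ± 0.33 in deleted samples and 8.39 ± 0.14 in controls (SD, n = 3 each), a log2 fold change of 2.11 ± 0.16 (SE), or 4.33-fold higher with a 95% interval of 3.35 to 5.59. This was the rise with rank 4 among the 19938 genes. Because the set was picked around this rise, the values of Cst7 are a description and carry no test here. As an array reads all sorted cells of a mouse together, more cells that express a gene and more RNA per cell cannot be told apart.

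**Figure D1:**
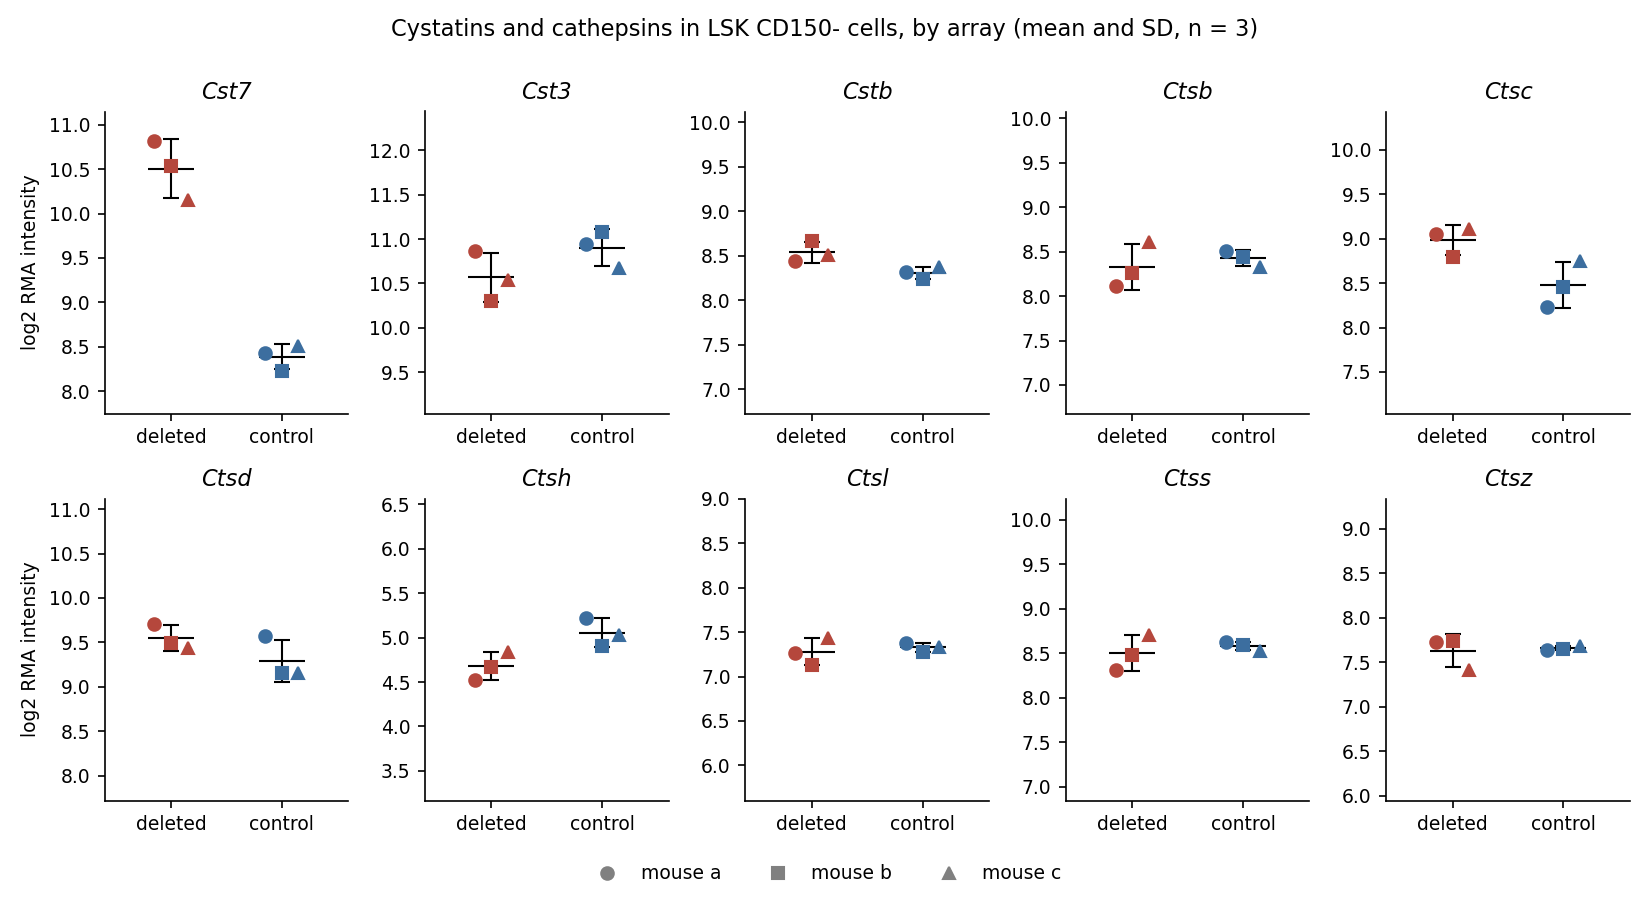
Log2 RMA intensity of the 10 members on each array (points; symbols give the mouse letter), deleted left and control right, with mean and SD (bars, n = 3); every panel spans the same number of log2 units around its own mean. Cst7 stands at 10.16 to 10.82 in deleted samples and 8.23 to 8.51 in controls, while in the other panels the genotypes lie close together.

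The fit called 286 genes over all genes tested at an adjusted p under 0.05, or 1.43% (140 higher, 0.702%, and 146 lower, 0.732%). Of the calls 49.0% were higher, against 65.8% after centring each array on its median. Without control b 53 genes were called. The genotypes did not overlap in their 3 and 3 values for 21.2% of all genes. Among the members 1 was called higher and 0 lower, and 4 of 10 did not overlap between genotypes, namely Cst7, Cstb and Ctsc, which were higher, and Ctsh, which was lower. These shares describe a set chosen in this contrast and nothing is read from them. The median log2 fold change of the 10 members was -0.04, and it was 0.03 over all genes. For the 9 members other than Cst7 limma gave adjusted p-values of 0.133 to 0.941, and the highest upper bound of their 95% intervals was 1.80-fold.

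Neither of the other cystatins passed. Cst3 encodes cystatin C, the secreted inhibitor made by most cells. It read 10.86, 10.30 and 10.54 on deleted arrays against 10.95, 11.08 and 10.67 on control arrays. The genotypes overlapped, since deleted mouse a lay above control mouse c, and the log2 fold change was -0.33 ± 0.16 (SE, limma adjusted p = 0.356), with an interval from 0.618-fold to 1.02-fold.

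Cstb encodes cystatin B, an inhibitor that stays in the cytosol and nucleus. It read 8.44, 8.67 and 8.51 on deleted arrays against 8.31, 8.23 and 8.37 on control arrays. The genotypes were separated by 0.07, with a log2 fold change of 0.23 ± 0.11 (SE, limma adjusted p = 0.330). The intervals of the log2 fold changes were -0.69 to 0.03 for Cst3 and -0.01 to 0.47 for Cstb.

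**Figure D2:**
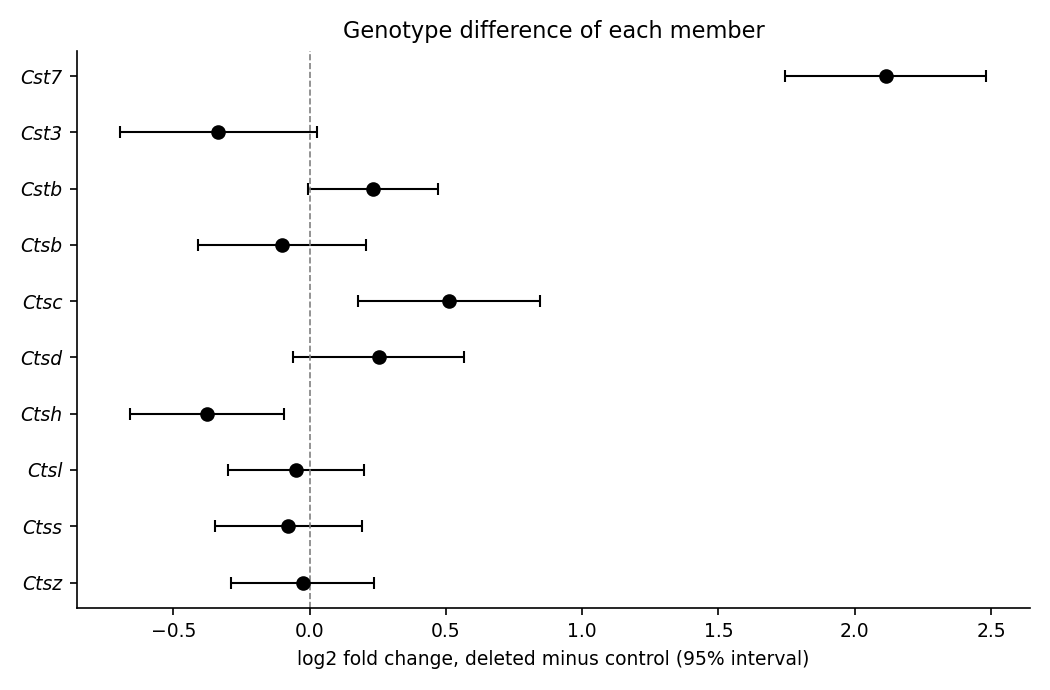
Log2 fold change of each member, deleted minus control (points), with its 95% interval from the limma fit (bars); the dashed line marks no difference. Cst7 lies at 2.11, and the other 9 members lie between -0.38 for Ctsh and 0.51 for Ctsc.

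Of the enzymes, Ctsc, which encodes cathepsin C, the activator of granule serine proteases and the target of cystatin F, had the highest log2 fold change. It read 9.05, 8.80 and 9.11 on deleted arrays against 8.23, 8.45 and 8.75 on control arrays. The lowest deleted value lay 0.05 above the highest control value. Ctsc averaged 8.99 ± 0.17 in deleted samples and 8.48 ± 0.26 in controls (SD, n = 3 each), a log2 fold change of 0.51 ± 0.15 (SE), or 1.43-fold with an interval of 1.13 to 1.80, which was short of the threshold (limma adjusted p = 0.133). Its adjusted p lay between 0.0780 and 0.376 over the alternatives tried.

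Ctsh encodes cathepsin H, an aminopeptidase. It read 4.52, 4.67 and 4.84 on deleted arrays against 5.23, 4.90 and 5.03 on control arrays. The genotypes were separated by 0.07, with a log2 fold change of -0.38 ± 0.13 (SE, limma adjusted p = 0.184). This row was dim, with values around 4.91, the lower quartile of all values, so signal was not separated from background.

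Ctsd encodes cathepsin D, an aspartic protease that cystatins do not block. It read 9.71, 9.49 and 9.44 on deleted arrays against 9.57, 9.16 and 9.15 on control arrays. Control mouse a lay within the deleted range, and the log2 fold change was 0.25 ± 0.14 (SE, limma adjusted p = 0.424).

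The remaining cathepsins were close to level between genotypes. Ctsb, the widely expressed cathepsin B, read 8.11, 8.26 and 8.61 on deleted arrays against 8.51, 8.44 and 8.33 on control arrays, and Ctss, the invariant chain protease of antigen-presenting cells, read 8.31, 8.48 and 8.71 against 8.62, 8.59 and 8.53. In both genes the control values lay within the range of the deleted ones. Their log2 fold changes were -0.10 ± 0.14 and -0.08 ± 0.12 (SE).

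Ctsl, which encodes the endopeptidase cathepsin L, read 7.26, 7.13 and 7.44 on deleted arrays against 7.38, 7.28 and 7.33 on control arrays (log2 fold change -0.05 ± 0.11 SE). Ctsz, which encodes the carboxypeptidase cathepsin Z, read 7.73, 7.74 and 7.42 against 7.64, 7.64 and 7.68 (-0.03 ± 0.12 SE). The 95% intervals of these last 4 cathepsins reached from 0.753-fold, the lower bound of Ctsb, to 1.18-fold, the upper bound of Ctsz. The sign of each of these 4 differences turned under at least 1 alternative, and none of them passed under any.

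The mean log2 value of the 7 cathepsins was 7.81, 7.80 and 7.94 on deleted arrays and 7.88, 7.78 and 7.83 on control arrays. The spread within a genotype was not the same on both sides. The SD over deleted mice exceeded that over controls for Ctsb (0.25 and 0.09), Ctss (0.20 and 0.05), Ctsz (0.19 and 0.02) and Ctsl (0.15 and 0.05), and was the smaller for Ctsc (0.17 and 0.26) and Ctsd (0.15 and 0.24). Deleted mouse c had the highest of the deleted values for Ctsb, Ctsc, Ctsh, Ctsl and Ctss, and the lowest for Cst7, Ctsd and Ctsz. With 3 mice a genotype these SDs are imprecise and their differences were not tested.

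No further gene of these families passed among those measured. The lists held 9 cathepsins of broad or blood cell expression, 9 of the mouse placenta and 26 other cystatins. Listed genes without a row naming them alone could not be read. Of 8 measured cathepsins of broad or blood cell expression outside the set, with legumain counted among them, 0 passed in limma (4 at an unadjusted p under 0.05), and their median log2 fold change was 0.24. The smallest p belonged to Ctso, which encodes cathepsin O (-0.46 ± 0.16 SE, limma adjusted p = 0.191), and to Lgmn, the legumain that trims other lysosomal proteases (0.40 ± 0.14 SE, adjusted p = 0.191). Of 7 cathepsins of the mouse placenta, 0 passed (0 unadjusted), and the lowest p was that of Cts7 (0.15 ± 0.11 SE, adjusted p = 0.576), followed by Cts6 (-0.08 ± 0.10 SE, adjusted p = 0.772). Of 18 other cystatins and cystatin-like genes 0 passed (5 unadjusted), with a median of 0.08. Kng1, a kininogen with cystatin domains (0.43 ± 0.12 SE, adjusted p = 0.136), and Csta2 (-0.35 ± 0.12 SE, adjusted p = 0.200), a stefin gene, had the smallest p among them. All values of Cts7, Cts6, Kng1 and Csta2 lay below the lower quartile of all values, so their signal was not separated from background. Over all genes, 3164 of 19938 had an unadjusted p under 0.05, which is the share to set beside the unadjusted counts of these and later lists.

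Cst7 lies on chromosome 2, as do Cst3 and a cluster of other cystatin genes. The 3 measured genes on each side of Cst7 in RefSeq gene order had log2 fold changes of -0.19 to 0.15, and 0 of these 6 passed. The nearest measured genes in that order were Zfp345 (0.15 ± 0.11 SE, limma adjusted p = 0.550) and Apmap (0.08 ± 0.14 SE, adjusted p = 0.842).

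Among granule serine proteases and serpins that act inside cells, 2 further genes rose. Of 19 measured serine proteases whose proforms cathepsin C trims, or is likely to trim by kinship, 1 rose, 0 fell and 18 did not pass, with a median log2 fold change of 0.09. The gene that rose was Gzmb, the granzyme of cytotoxic cells, at 9.24, 7.18 and 7.42 on deleted arrays against 5.74, 5.83 and 5.67 on control arrays (2.20 ± 0.43 SE, limma adjusted p = 0.0438). Its call was lost with a robust prior (adjusted p = 0.0507) and after leaving out any one of control a, b or c or deleted b or c (up to 0.124), and its log2 fold change was 1.55 without deleted a.

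Among the uncalled serine proteases of that list, Cma1 had the smallest p (log2 fold change -0.45 ± 0.11 SE, limma adjusted p = 0.0870). Gzmc had the largest rise among them (0.97 ± 0.29 SE, adjusted p = 0.151). A set of 3 neutrophil serine proteases, which are classical clients of cathepsin C and are named here with their values already known, did not reach the threshold. Elane, neutrophil elastase, averaged 5.90 ± 0.20 in deleted samples and 6.47 ± 0.24 in controls (log2 fold change -0.57 ± 0.15 SE, limma adjusted p = 0.103). Prtn3, proteinase 3, averaged 7.62 ± 0.23 in deleted samples and 7.93 ± 0.04 in controls (-0.31 ± 0.13 SE, adjusted p = 0.269). Ctsg encodes cathepsin G, a serine protease in spite of its name, and averaged 8.55 ± 0.07 in deleted samples and 8.28 ± 0.16 in controls (0.26 ± 0.11 SE, adjusted p = 0.297).

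Of 12 serpins that act inside cells, Serpinb1a rose, 0 fell and 11 did not pass (list median 0.14). Serpinb1a, an inhibitor of neutrophil serine proteases, read 9.13, 9.16 and 9.21 on deleted arrays against 8.53, 8.57 and 8.49 on control arrays (log2 fold change 0.64 ± 0.10 SE, limma adjusted p = 0.0151). Its call was lost without deleted b, deleted c, control a or control b (adjusted p up to 0.0664).

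The genes of MHC class II processing, a pathway in which cathepsins S and L cut the invariant chain, had a median log2 fold change of -0.33, but 0 of 9 measured members passed (5 at an unadjusted p under 0.05). H2-DMa, a chain of the peptide exchanger, averaged 7.67 ± 0.45 in deleted samples and 8.73 ± 0.34 in controls (SD, n = 3 each; -1.06 ± 0.23 SE, limma adjusted p = 0.0611). H2-Aa, a class II chain, averaged 6.68 ± 0.39 in deleted samples and 7.51 ± 0.38 in controls (-0.84 ± 0.22 SE, adjusted p = 0.106). H2-DMa passed without control c (adjusted p = 0.0417) and among genes brighter than the median gene (0.0417).

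Few other lysosomal genes passed. Of 26 measured lysosomal hydrolases other than the cathepsins 0 passed (3 at an unadjusted p under 0.05; median log2 fold change -0.05), with Arsb, an arylsulfatase (-0.51 ± 0.11 SE, limma adjusted p = 0.0663, or 0.0437 among genes brighter than the median gene; -0.24 and adjusted p = 0.285 when its rows were averaged), and Hexa, a hexosaminidase (-0.37 ± 0.13 SE, adjusted p = 0.201), at the smallest p. Of 23 membrane and cofactor proteins, 10 had an unadjusted p under 0.05, as did 3164 of all 19938 genes. At the adjusted threshold 1 fell, 0 rose and 22 did not pass (median -0.20). The calls of this list numbered 3 among genes brighter than the median gene and 4 at an adjusted p under 0.1. The gene that fell in the main fit was Cd68, a lysosomal membrane glycoprotein of phagocytes. It averaged 7.04 ± 0.05 in deleted samples and 7.94 ± 0.09 in controls (SD, n = 3 each). Its log2 fold change was -0.90 ± 0.10 (SE, limma adjusted p = 0.00520).

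Of 14 genes that deliver enzymes to the lysosome, Igf2r fell and 13 did not pass (median 0.01). Igf2r, the large mannose 6-phosphate receptor that carries cathepsin proforms, read 5.68, 5.60 and 5.81 on deleted arrays against 6.23, 6.37 and 6.32 on control arrays (log2 fold change -0.61 ± 0.10 SE, limma adjusted p = 0.0267). All deleted values lay below the median of all values, and the call was lost without any array except deleted c (adjusted p up to 0.107).

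Of the 4 MiT transcription factors, the family that includes the lysosomal regulator TFEB, Tfec fell, 0 rose and 3 did not pass. Tfec read 7.14, 6.75 and 7.17 on deleted arrays against 7.79, 8.50 and 8.45 on control arrays (log2 fold change -1.22 ± 0.20 SE, limma adjusted p = 0.0205). Its call was lost without deleted a, deleted b, control b or control c (adjusted p up to 0.0840). Tfeb itself averaged 5.69 ± 0.28 in deleted samples and 5.91 ± 0.11 in controls (-0.23 ± 0.15 SE, adjusted p = 0.510).

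**Figure D3:**
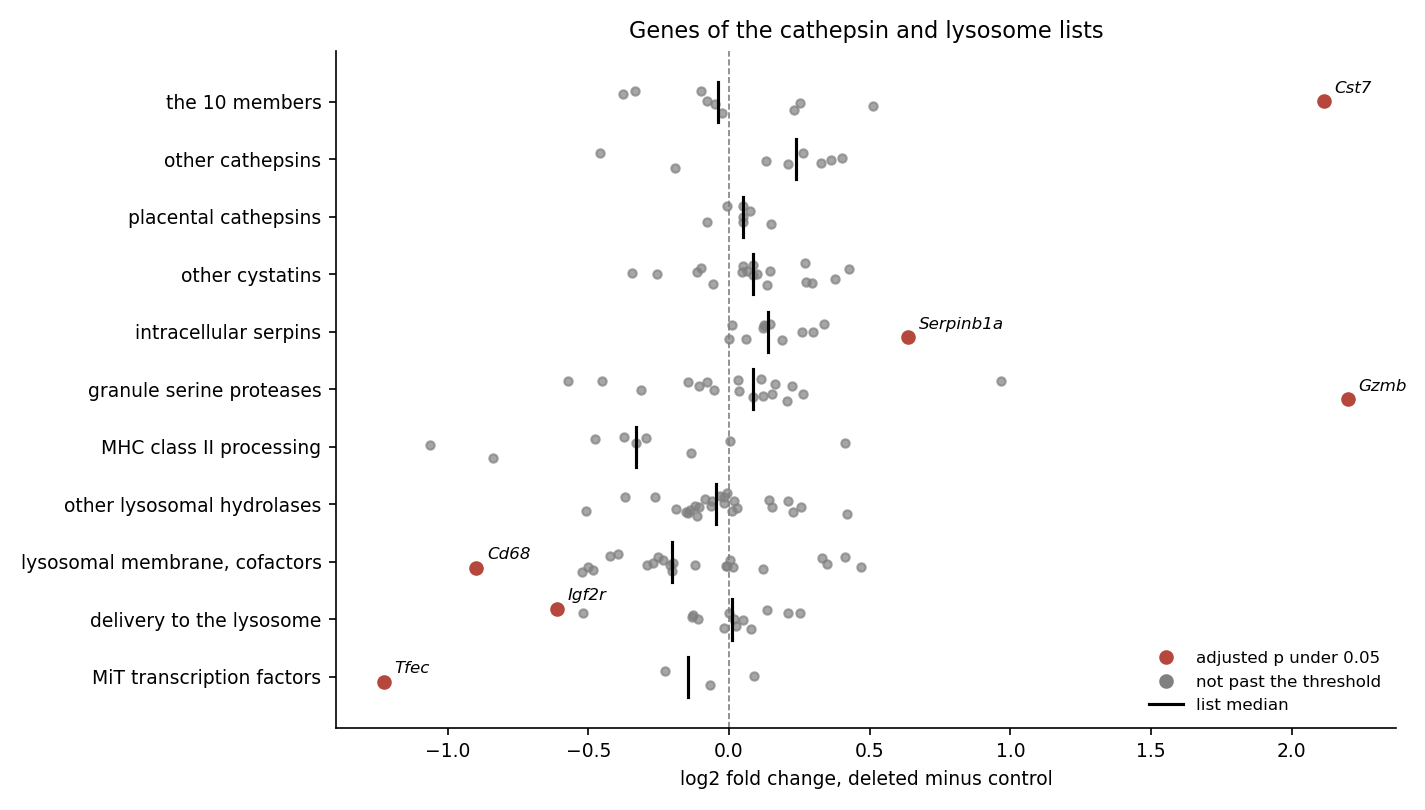
Log2 fold change (deleted minus control) of every measured gene in the set of 10 and in 10 lists of related genes (points), with the median of each (black line); red points passed an adjusted p of 0.05 and are named, and vertical position within a row carries no value. Cst7 and Gzmb are the named points above 2, and Serpinb1a is the other red point to the right of 0.

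Markers of other cells moved between the genotypes in part. Of 8 markers of mast cells and basophils, cells in which Cst7 is also known to be expressed, 1 was called higher, Cpa3 (log2 fold change 3.47 ± 0.12 SE, limma adjusted p = 2.2e-06), and 7 did not pass. The log2 of their summed intensity was 11.47 to 11.78 in deleted samples and 9.23 to 9.32 in controls. The 7 markers without Cpa3 had 3 positive and 4 negative log2 fold changes. Their summed level was 8.55 to 8.61 in deleted samples and 8.49 to 8.69 in controls. Leaving out the 1 called marker keeps only uncalled genes, so nothing is read from this level. Among them Ms4a2 was higher on every deleted array (0.53 ± 0.17 SE, limma adjusted p = 0.180) and Cma1 lower (-0.45 ± 0.11 SE, adjusted p = 0.0870). Of 8 markers of T and NK cells, other sources of Cst7, 0 passed (1 at an unadjusted p under 0.05), and their summed level was 9.82 to 10.12 in deleted samples and 9.70 to 9.89 in controls. Ncr1, which encodes an NK cell receptor, read 4.55 to 4.70 in deleted samples and 4.14 to 4.47 in controls, below the lower quartile of all values.

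Of 8 markers of neutrophils 3 were called lower and 0 higher. These were S100a8 (log2 fold change -3.51 ± 0.13 SE, limma adjusted p = 2.2e-06), S100a9 (-3.37 ± 0.17 SE) and Camp (-0.97 ± 0.16 SE, limma adjusted p = 0.0230). The adjusted p of Camp was up to 0.0915 after leaving out deleted b or c or control a or c. The summed level was 8.34 to 8.43 in deleted samples and 10.12 to 10.41 in controls. S100a9 and S100a8 were the brightest of the 8 in controls (means 9.18 and 8.39) and weigh most in that sum. Of the 8 log2 fold changes 6 were negative and 2 positive. The positive ones were Cxcr2, higher on every deleted array (0.46 ± 0.13 SE, limma adjusted p = 0.122), and Mmp8 (0.23 ± 0.22 SE), whose genotypes overlapped. Of 6 measured markers of monocytes and macrophages, 1 was lower, Cd68, which was the brightest of them in controls (mean 7.94). Their summed level, with Cd68 in it, was 8.77 to 9.03 in deleted samples and 9.15 to 9.24 in controls. The log2 fold changes of these markers were positive for 4 and negative for 2, with a list median of 0.06. Of 8 markers of dendritic cells 1 was lower, Flt3 (-0.71 ± 0.14 SE, limma adjusted p = 0.0469), the brightest of the 8 in both genotypes. Their summed level, with Flt3 in it, was 9.75 to 10.15 in deleted samples and 10.47 to 10.54 in controls. The list median was -0.01. Besides Flt3 and the uncalled H2-Aa (-0.84 ± 0.22 SE, limma adjusted p = 0.106), the log2 fold changes lay between -0.13 for Siglech and 0.09 for Clec9a. Of 5 measured genes that early progenitors express, of which Kit alone belongs to the gate, Cd48 was called higher (1.00 ± 0.11 SE, adjusted p = 0.00520) and Kit and Flt3 lower, the last of these also lost under all 3 other scalings and both lost without some single arrays (adjusted p up to 0.101 for Kit and 0.145 for Flt3). Of the markers of B cells, erythroid cells and megakaryocytes, 0 of 7, 0 of 5 and 0 of 6 passed (1, 0 and 2 at an unadjusted p under 0.05). The part of other cells in the values of Cst7 and the cathepsins was not tested.

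The genes whose 6 values ran most like those of Cst7 were ranked by the root mean square difference of values centred on each gene's own mean, in log2 units. Symbols of microRNAs, small nucleolar RNAs, olfactory or vomeronasal receptors, predicted genes, clones and antigen receptor segments were left out by name pattern. The pattern also dropped symbols that begin with Rn. The 5 nearest of the rest, here called genes with a descriptive symbol, were Ffar2 (0.35), Clec2i (0.38), Clec4e (0.39), Ifi209 (0.40) and Emilin2 (0.40). Ffar2 encodes a receptor of short-chain fatty acids, and Clec2i and Clec4e are C-type lectin genes. Ifi209 is interferon-inducible, and Emilin2 encodes a protein of the extracellular matrix. Ffar2 read 9.27, 9.11 and 9.23 on deleted arrays against 7.31, 7.47 and 7.97 on control arrays. Emilin2 read 7.97, 7.94 and 7.88 against 6.56, 6.40 and 6.68. All 5 were higher on every deleted array than on any control array, as a profile near that of Cst7 requires. Of the other members the nearest was Ctsc, with a difference of 0.85 and place 414 among all genes, with no symbol left out.

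**Figure D4:**
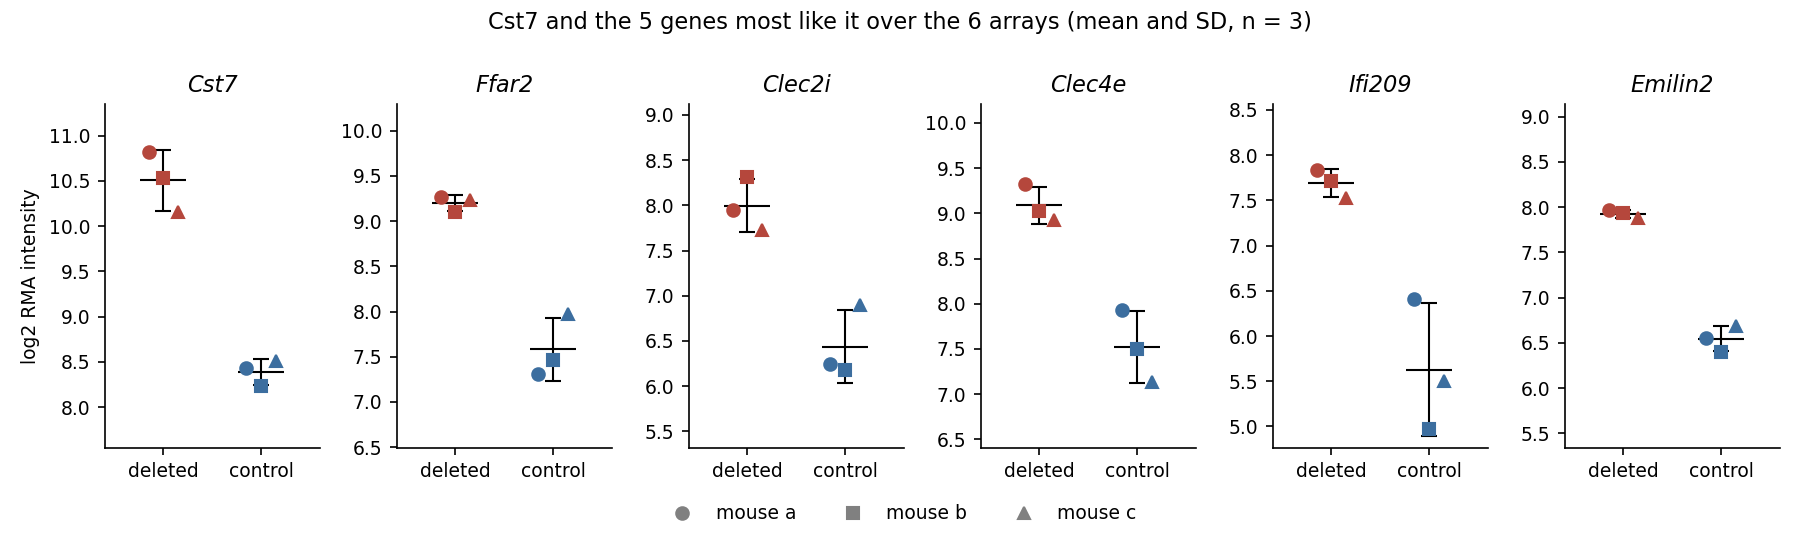
Log2 RMA intensity on each array of Cst7 (left) and of the 5 genes nearest to it, among those with a descriptive symbol. Nearness is the root mean square difference over the 6 arrays. Deleted samples stand left and controls right in each panel, with mean and SD (bars, n = 3). Every panel spans the same number of log2 units. Ffar2 and Emilin2 keep the deleted mice close together, whereas Cst7 runs from 10.82 in mouse a to 10.16 in mouse c.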

How the data were processed

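Each of the 6 arrays, 1 per mouse, has a column of log2 values deposited by the authors. Per the submitters' processing notes, RMA and version 1.1.2 of Affymetrix Expression Console were used. For the RMA settings and the annotation build, the sources used here give nothing. Values were taken as deposited, without detection calls, so signal over background was judged from intensity alone. Array medians were 6.16 to 6.23.

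Of 35556 rows, 21789 name 1 gene in the platform's annotation, 1621 name several and 12146 are unnamed here. They gave 19938 genes, with the row of highest mean kept for the 999 genes with more than 1.

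Genotypes were compared over all genes in R 4.3.3 with limma 3.58.1 (eBayes after lmFit, no trend, robust prior or block; prior degrees of freedom 5.52), two-sided, with Benjamini-Hochberg adjustment and a threshold of 0.05. Intervals are 95% intervals of the moderated fit. Replicates were separate mice, per the series' design text. Cebpa was also compared by an exact permutation test. Lists are given as counts and medians, with no test over a list. From each list of related genes the called genes were named, or the 2 with the smallest p, and from each list of cell type markers the called ones. Promoters were searched in Python 3.11.15.

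The members, lists, motifs and tests were chosen with earlier results of these data known.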

Additional observations from a re-analysis of the deposited data

How the results depend on the processing

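The fit was repeated with an intensity trend or a robust prior, quantile, median and cyclic loess scaling, 2 filters on dim genes, averaging all rows of each gene, array weights, the letters of the titles as a replicate block, an ordinary pooled-variance test and without each array. Of 168 refits of the 10 members, 160 kept direction and side of the threshold. With a changed prior, the filters, row averaging, the block and the ordinary test, each member kept the same log2 fold change. Those refits could move the adjusted p but could not turn a sign. The log2 fold change of Cst7 lay between 1.96 and 2.29, and its call was lost only under the ordinary test (2.11, adjusted p = 0.189, 0 members called). The call of Cebpa was lost there too (-1.71, adjusted p = 0.187). The set was picked around Cst7 and the refits use the same arrays, so they describe its rise and do not test it. Signs turned for Ctsl and Ctsz under quantile scaling (0.017 and 0.034) and for Ctsz under median centring (0.0219). With single arrays left out the log2 fold change ran from -0.241 to 0.0064 for Ctsb, from -0.129 to 0.0225 for Ctsl, from -0.181 to 0.0162 for Ctss and from -0.0817 to 0.0808 for Ctsz, all without a call, and the cause was not tested. The 286 calls became 438 among genes brighter than the median gene, 676 at an adjusted p under 0.1, 0 with the ordinary test (2585 at an unadjusted p under 0.05; limma gave 3164), and 145, 84 and 143 without deleted a, b and c and 126, 53 and 250 without control a, b and c. Arrays of the same title letter did not deviate together (r -0.04 to 0.06), and the replicate block gave 274 calls, with H2-DMa past the threshold (adjusted p = 0.00825) and Igf2r short of it (0.0504). Of the calls, 49.0% were higher as deposited, 61.6% after quantile scaling and 65.8% after median centring. The number of mice and dim rows such as Ctsh limit the precision.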
